A study of Mus musculus with 5 samples.

Results

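The replication-dependent histone genes of the mouse supply the core histones H2A, H2B, H3 and H4 and the linker histone H1 that package newly copied DNA. They were taken as every feature of the count matrices whose symbol begins with Hist1h, Hist2h, Hist3h or Hist4, which gave 67 of 31053 features: 6 H1, 18 H2A, 18 H2B, 12 H3 and 13 H4 genes. Of these, 60 had at least 50 UMIs (unique molecular identifiers, 1 per captured RNA molecule) over the 5 libraries, and the other 7 held 80 UMIs together and entered only the sums. Hist1h3h, with 52 UMIs, lay just inside that limit and Hist1h2ah, with 47, just outside it.

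The study asked how bone marrow (BM) rebuilds its myeloid cells after chemotherapy with cyclophosphamide (CTX), an alkylating agent that damages the DNA of dividing cells. Single-cell RNA was sequenced from BALB/c mice, 4 to 8 weeks old. Whole marrow came from untreated mice (naive BM) and from mice 2 days (D2 CTX BM) and 7 days (D7 CTX BM) after CTX at 150 mg/kg, and each of these libraries pooled 3 mice after removal of dead cells and lysis of red cells. CD11b+Ly6Chi monocytes were sorted from the marrow of untreated mice (naive sorted monocytes) and of CTX-treated mice (CTX sorted monocytes), for which the labels give no day and the study's methods give day 7; the number of mice in these pools is not given in the sources used here.

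Each group was 1 library, so no difference below could be set against the spread between mice, and no test was run. Intervals are exact 95% intervals that cover counting error only. The 5 libraries held 2223 to 8605 barcodes and 22694817 to 68459527 UMIs, and 1891 to 8290 cells with at least 200 genes and under 20% mitochondrial UMIs were kept, with median depths of 3033.5 (D2 CTX BM) to 10299 UMIs (naive sorted monocytes). Pairs of libraries shared 2 to 16 barcodes. Levels are given as CPM, UMIs per 1000000 UMIs of the kept cells. CPM was not divided by transcript length, since the assay counts 3′ ends, so a comparison of levels between genes is on the scale of counted molecules.

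Replication-dependent histone mRNAs are the known exception among animal mRNAs in ending not in a poly(A) tail but in a conserved stem and loop, which the stem-loop binding protein (SLBP) holds. Their synthesis rises when cells enter S phase and they are degraded when DNA replication stops, so their level follows DNA synthesis. The library chemistry primes on runs of A, so it sees these genes through the minority of transcripts that carry a tail, through A runs within them or through longer transcripts that read past the stem and loop. Other histones, such as H2A.Z and H3.3, are encoded by genes with polyadenylated mRNAs and are made throughout the cycle.

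All 67 genes were found in the GENCODE M21 annotation of GRCm38, with 54 on chromosome 13, 10 on chromosome 3, 2 on chromosome 11 and 1 on chromosome 6, and 63 of them had a single exon. A stem of 6 bases opening with GG, its reverse complement, and a loop of 4 bases opening with TT were present on the transcript strand of 44 of the 67, against 0.276% of 58725 other protein-coding transcripts. The 30 bases or fewer around this element are shown for 6 genes, since it is the feature that sets these mRNAs apart: 5 are abundant members described below, and Hist1h4j, with 298 UMIs, is shown for its rarer stem. In each line the capitals mark the paired bases of the stem.

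Hist1h1c: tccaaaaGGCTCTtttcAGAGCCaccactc
Hist1h2ae: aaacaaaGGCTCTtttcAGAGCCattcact
Hist1h2ap: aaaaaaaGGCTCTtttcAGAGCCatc
Hist1h3c: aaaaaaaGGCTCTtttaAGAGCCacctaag
Hist1h4d: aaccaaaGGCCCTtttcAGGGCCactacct
Hist1h4j: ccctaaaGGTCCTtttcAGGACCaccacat

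These lie in the 3′ UTR at chr13:23739505-23739534 (plus strand), chr13:23570661-23570690 (minus), chr13:21833026-21833051 (minus), chr13:23745040-23745069 (minus), chr13:23581943-23581972 (plus) and chr13:21735430-21735459 (plus), in the order shown. The elements found in 4 H1, 11 H2A, 10 H2B and 8 H3 genes had the stem GGCTCT, whereas among the 11 H4 genes with an element 9 had GGCCCT and 2 had GGTCCT. The annotated transcripts of Hist1h1b and Hist1h1a, both linker histone genes, held no such element. Those of Hist2h2bb, Hist1h2an and Hist1h3i, also without it, were only 381, 393 and 411 bases long. An element past the annotated end of a transcript would not be found, so its absence is not read as a trait of the gene.

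The annotated Hist1h2ap transcript, the source of more UMIs than any other member, stops 3 bases after the element. It also carries a run of 12 A directly before the stem, shown here in capitals.

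Hist1h2ap: cccgaaaagAAAAAAAAAAAAggctctttt

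This stretch is chr13:21833036-21833065 on the minus strand, in the 3′ UTR. A run of at least 12 A occurred in 3 members (Hist1h2ap, Hist1h2ao and Hist1h2ac) and in 5.31% of the other protein-coding transcripts. Hist1h2ap lies at chr13:21833026-21833507 (482 bases) and shares a stretch of 452 bases with Hist1h2ao, a near copy of 480 bases. Only 7.63% of the 90-base windows of Hist1h2ap occurred in no other transcript. In 28 members fewer than 50% of such windows were unique, so the UMI counts of near copies are uncertain. Whether the sums by histone type are firmer than the single genes was not tested.

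The members held 407223 UMIs, unevenly spread. Hist1h2ap, an H2A gene, held 35.0% of them, Hist1h1b, the linker histone H1.5, held 15.3%, and Hist1h2ae held 8.58%. Hist1h1e (H1.4) followed with 7.60% and Hist1h1c (H1.2) with 6.51%. The 5 genes together held 73.1%, and the 20 genes with most UMIs held 91.8%. The leading H4, H3 and H2B genes, Hist1h4d with 12494 UMIs, Hist1h3c with 6179 and Hist1h2bc with 5011, were each far below the leading H1 and H2A genes.

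Summed over all 67 genes, the histone level was 1681 CPM (interval 1669 to 1693) in naive BM, 677 CPM (668 to 686) in D2 CTX BM and 1102 CPM (1094 to 1110) in D7 CTX BM. It was 4998 CPM (4968 to 5027) in naive sorted monocytes and 4109 CPM (4086 to 4133) in CTX sorted monocytes. The whole marrow was thus lowest 2 days after CTX, and both sorted libraries lay above all 3 marrow libraries. In bulk sums of this kind, fewer cells of a type and less RNA per cell cannot be told apart.

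Hist1h2ap did not keep the order of the other genes. Its level was 48.4 CPM in naive BM, 189 in D2 CTX BM and 41.5 in D7 CTX BM, then 3313 in naive sorted monocytes and 1975 in CTX sorted monocytes. It made up 2.88%, 27.9%, 3.77%, 66.3% and 48.1% of the members' UMIs in the same order. It was therefore high in D2 CTX BM and in the sorted libraries and low in naive and D7 CTX BM, and sums are given both with and without it. Without it the members summed to 1633, 488, 1060, 1684 and 2135 CPM, and naive BM and naive sorted monocytes then lay close together.

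**Figure D1:**
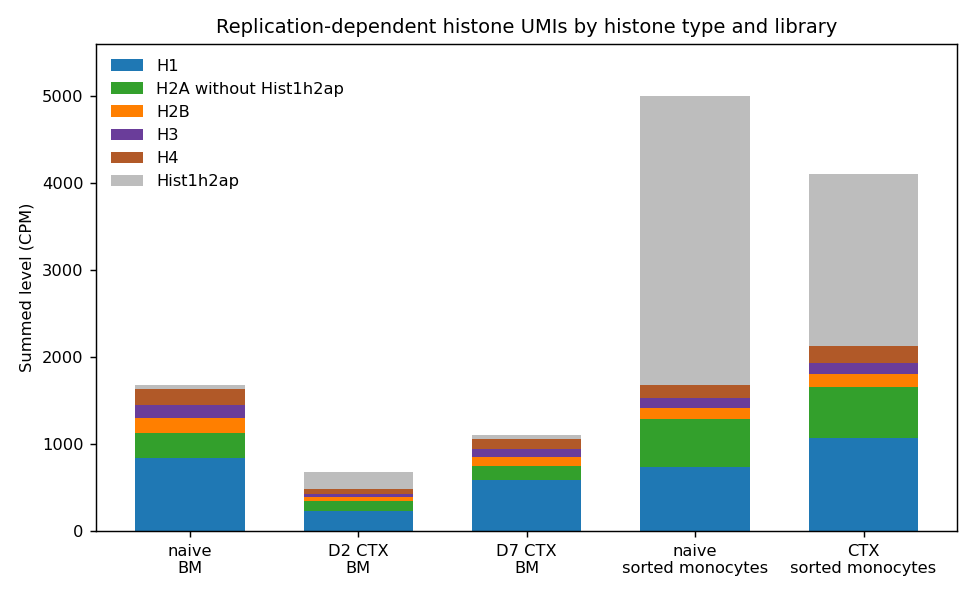
Summed CPM of the H1, H2A, H2B, H3 and H4 genes in each of the 5 libraries, with Hist1h2ap drawn apart from the other H2A genes. D2 CTX BM is lowest for every type once Hist1h2ap is set apart, and Hist1h2ap makes up 66.3% of the member UMIs of naive sorted monocytes and 48.1% of those of CTX sorted monocytes.

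H1 genes, which encode the linker histones that bind the DNA entering and leaving the nucleosome, gave 846 CPM in naive BM, 238 in D2 CTX BM and 586 in D7 CTX BM, then 736 in naive sorted monocytes and 1077 in CTX sorted monocytes. H2A genes other than Hist1h2ap gave 286, 106, 166, 559 and 579 CPM, and H2B genes, whose products pair with H2A, gave 170, 49.2, 107, 127 and 155 CPM. H3 genes gave 150, 35.4, 85.2, 112 and 121 CPM, and H4 genes, whose products pair with H3, gave 181, 59.4, 116, 149 and 202 CPM. The order of the marrow libraries was the same for all of these groups, naive BM first, D7 CTX BM next and D2 CTX BM last. The sorted libraries differed from the marrow most in their H2A genes.

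At day 2 the sum was lower than in naive BM by 1.31 on the log2 scale, and without Hist1h2ap the log2 ratio was -1.74 (interval -1.77 to -1.72). By type, the log2 ratio was -1.83 for H1, -1.79 for H2B, -2.09 for H3, -1.61 for H4 and -1.43 for H2A without Hist1h2ap. With Hist1h2ap included the H2A ratio was -0.18. Across genes with at least 50 UMIs, 45 of the 60 members were at least 1 log2 unit lower and 1 was at least 1 log2 unit higher, on the scale log2(CPM + 0.1), which understates differences of rare genes. Of 13538 features past the same limit, 4.11% were this much lower and 11.5% this much higher. The median log2 ratio was -1.81 over the members and 0.23 over all features.

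The linker histone Hist1h1b was at 408 CPM in naive BM and 85.4 CPM in D2 CTX BM, which is a log2 ratio of -2.26. Hist1h1a (H1.1) went with it, at 70.2 and 13.1 CPM (-2.41), and Hist1h1e stood at 184 and 57.7 CPM (-1.67). Hist1h1c was the linker histone gene with the smallest difference, at 122 and 64.3 CPM (-0.92). The lowest ratio belonged to Hist1h2an, an H2A gene at 16.2 and 0.619 CPM (-4.50). Next were Hist1h3i, an H3 gene at 16.3 and 1.18 CPM (-3.68), and Hist1h2bk, an H2B gene at 4.10 and 0.265 CPM (-3.52). Only 16.1%, 27.3% and 28.4% of the 90-base windows of these genes were unique, so their counts are uncertain.

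Among the abundant core histone genes, Hist1h4d was at 90.8 CPM in naive BM and 20.4 CPM in D2 CTX BM (-2.15), and Hist1h3c was at 58.1 and 9.81 CPM (-2.55). Hist1h2ae, the second H2A gene by UMIs, was at 128 and 59.0 CPM (-1.12). The single member that was higher was Hist1h2ap, with a log2 ratio of 1.97. The next in order were Hist1h2ai, at 1.24 and 1.27 CPM (0.03), and Hist2h3c2, at 0.803 and 0.707 CPM (-0.16). Unique 90-base windows made up 11.2% of Hist1h2ai and 38.0% of Hist2h3c2. Of the abundant genes, Hist1h4i and Hist1h2bc, an H4 and an H2B gene, differed least, with ratios of -0.50 and -0.53.

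At day 7 the sum lay between the values of naive and D2 CTX BM. The log2 ratio of D7 CTX BM to naive BM was -0.61 for all members and -0.62 without Hist1h2ap, and by type it ran from -0.53 for H1 to -0.82 for H3. Of the 60 genes, 15 were at least 1 log2 unit lower and 0 higher, where 31.1% of all features were lower and 1.68% higher. The median was -0.70 for the members and -0.67 for all features, so at this time the members stood where the typical feature stood. When libraries were scaled by the median ratio of genes in place of total UMIs, all log2 ratios of this comparison moved by 0.71 and the summed ratio became 0.10.

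Hist1h1a was among the lowest at day 7, with 70.2 CPM in naive BM and 14.7 CPM in D7 CTX BM (-2.24). Hist3h2ba and Hist3h2a, neighbouring H2B and H2A genes on chromosome 11, were at 7.79 and 0.530 CPM (-3.65) and at 15.5 and 3.74 CPM (-2.02). The highest ratios were those of Hist2h3c2 (0.58), Hist1h2ao (0.38) and Hist1h4i (0.24). Hist1h1c, at 137 CPM in D7 CTX BM, also lay above its naive level, with a ratio of 0.16. Hist1h1b was at 260 CPM, a ratio of -0.65.

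Between day 2 and day 7 most members were higher at the later time. The log2 ratio of D7 to D2 CTX BM was 0.70 for the sum and 1.12 without Hist1h2ap, and of the 60 genes 35 were at least 1 log2 unit higher and 3 lower, where 1.57% of all features were higher and 44.9% lower. The median was 1.21 for the members and -0.89 for all features. Scaling by the median ratio of genes moved all ratios by 0.91, and 51 members were then at least 1 log2 unit higher and 1 lower, where 10.2% of all features were higher and 15.3% lower. The highest ratios were those of Hist1h2an (3.06), Hist1h2bk (2.68) and Hist1h2af (2.64). The 3 lower genes were Hist1h2ap (-2.18), Hist3h2ba (-1.74) and Hist3h2a (-1.20). The marrow comparisons share libraries, so these ratios are not independent of those above.

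In the sorted monocytes the sign of the difference turned on a single gene. The log2 ratio of CTX to naive sorted monocytes was -0.28 for all members and 0.34 (interval 0.32 to 0.36) without Hist1h2ap. H1 genes were higher by 0.55, H4 genes by 0.44, H2B genes by 0.28 and H3 genes by 0.12, and H2A genes without Hist1h2ap by 0.05. Of the 60 genes, 3 were at least 1 log2 unit higher and 0 lower, where 2.41% of all features were higher and 2.37% lower, and the median was 0.24 for the members and 0.04 for all features.

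The 3 higher genes were Hist1h3i, at 2.24 CPM in naive and 5.17 CPM in CTX sorted monocytes (1.17), Hist2h2bb at 5.30 and 11.2 CPM (1.07) and Hist2h2ab at 0.898 and 1.96 CPM (1.04). Hist1h1b stood at 319 and 550 CPM, a ratio of 0.79, while Hist1h2ae was at 415 and 422 CPM (0.02). The lowest ratios among genes with at least 50 UMIs in this pair were those of Hist1h2ap (-0.75), Hist2h2aa1 (-0.69, at 43.1 and 26.7 CPM) and Hist1h3b (-0.61, at 9.25 and 6.01 CPM).

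**Figure D2:**
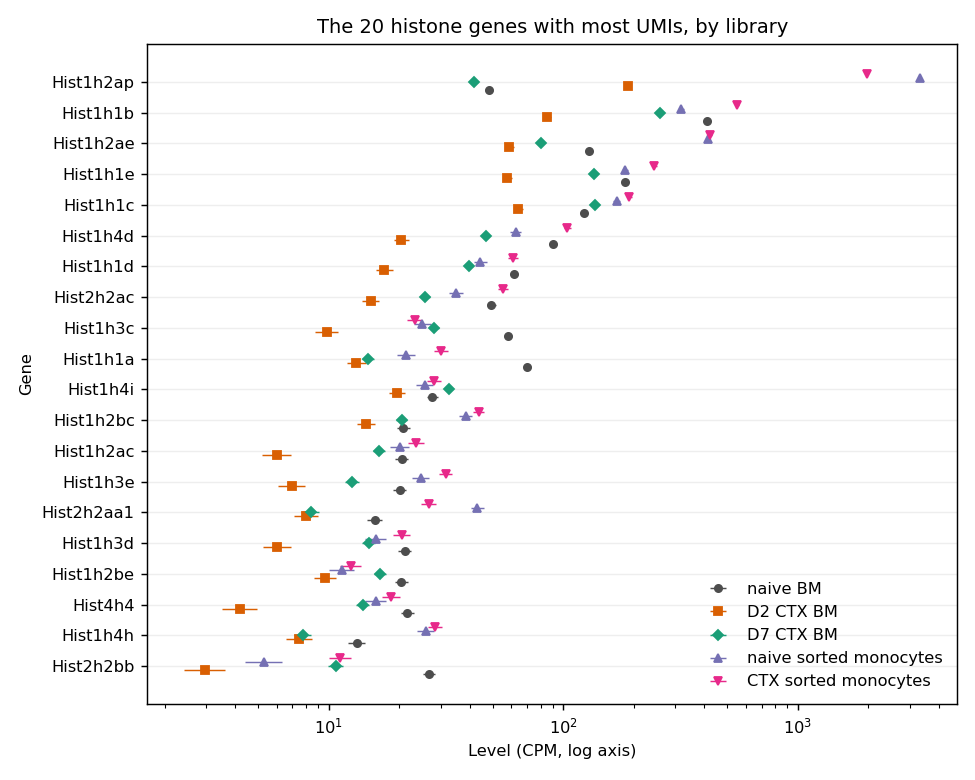
Level of the 20 members with most UMIs in each of the 5 libraries, as CPM on a log axis with exact Poisson intervals. Most genes are lowest in D2 CTX BM, whereas Hist1h2ap is at 189 CPM there against 48.4 CPM in naive BM and reaches 3313 CPM in naive sorted monocytes.

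Cells were then split by their place in the division cycle, using a list of replication genes (the Mcm helicase subunits, Pcna, Tyms, Rrm2 and others) and a list of mitosis genes (Mki67, Top2a, Ccnb1 and others), none of which is a histone gene. Cells with at least 20 replication-list UMIs per 10000 are called replication-high, cells below that with at least 20 mitosis-list UMIs per 10000 are called mitosis-high, and cells under 5 for both are called low. All other cells are called between. These limits were set after the marker distributions had been seen, and 3.15% to 5.66% of the cells of a library lay near the replication limit. The limits are rates with no minimum count, so very few UMIs can decide the gate of a shallow cell. Median depth differed between libraries, and the shares of cells in each gate were not compared at equal depth.

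Replication-high cells made up 19.9% of the kept cells of naive BM (1413 cells), 6.56% of D2 CTX BM (402), 12.2% of D7 CTX BM (1008), 14.4% of naive sorted monocytes (272) and 19.9% of CTX sorted monocytes (510). They were the smallest share 2 days after CTX. Low cells made up 53.9% of naive BM and 72.0% of D2 CTX BM. Mitosis-high cells reached 15.4% in D7 CTX BM, where they held 45.6% of the histone UMIs, against 8.64% of the cells and 21.1% of the histone UMIs in naive BM.

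In every library the histone level was higher in replication-high than in low cells. It was 2701 CPM against 382 CPM in naive BM, a log2 ratio of 2.82. It was 1374 against 307 CPM in D2 CTX BM (2.16) and 2132 against 339 CPM in D7 CTX BM (2.65). The gap was widest in the sorted cells, at 11610 against 581 CPM in naive (4.32) and 7540 against 730 CPM in CTX sorted monocytes (3.37). Without Hist1h2ap the ratios were 2.79, 1.63, 2.60, 2.86 and 2.49 in the same order, so D2 CTX BM had the smallest and the others ran from 2.49 to 2.86.

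**Figure D3:**
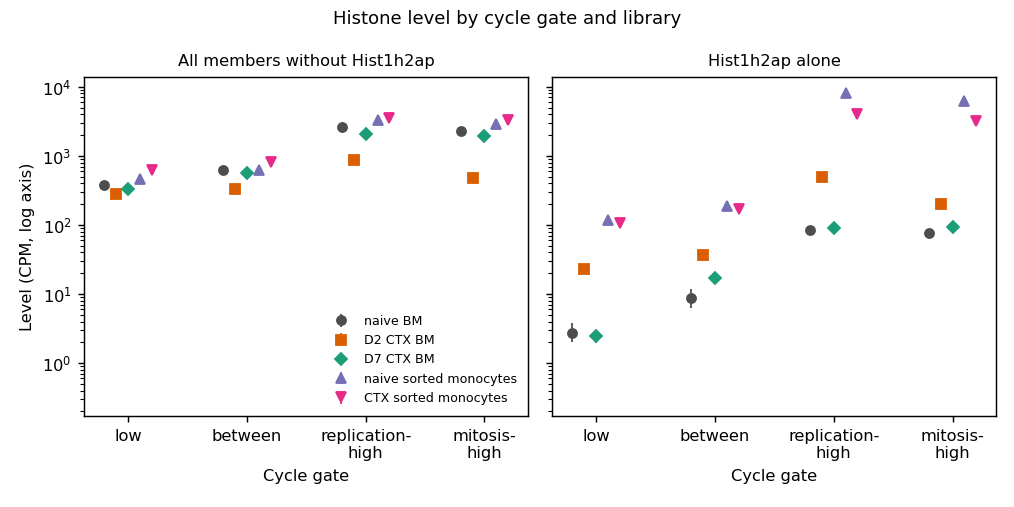
Summed histone CPM without Hist1h2ap, and CPM of Hist1h2ap, in low, between, replication-high and mitosis-high cells of each library, on log axes with exact Poisson intervals. Without Hist1h2ap the D2 CTX BM cells lie at 876 CPM in the replication-high gate against 2617 CPM in naive BM. In every gate shown, Hist1h2ap lies higher in D2 CTX BM and in both sorted libraries than in naive and D7 CTX BM.

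Most single genes followed the sum. Of the 60 members, 53 in naive BM, 46 in D2 CTX BM and 56 in D7 CTX BM, then 54 in naive sorted and 53 in CTX sorted monocytes were at least 1 log2 unit higher in replication-high than in low cells. The share of all features this much higher was 28.5%, 32.5%, 38.7%, 13.9% and 14.7%. In D2 CTX BM 6 members, and in CTX sorted monocytes 1, were at least 1 log2 unit lower, where 20.5% and 13.7% of all features were, and in the other libraries 0 members were, where 21.9%, 12% and 14.7% of all features were. In all 5 libraries 42 members passed the limit upwards, and the share of all features that did so was not computed.

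The highest median ratios over the libraries were those of Hist1h3c (6.02) and Hist1h1b (5.87), followed by the H2A genes Hist1h2af (5.65) and Hist1h2ab (5.45) and the H3 gene Hist1h3b (5.42). Hist1h3c ranged from 5.52 to 6.52 over the libraries, and Hist1h2ap from 4.43 to 6.13. At the other end stood Hist1h1c, with a median of -0.78 and values below 0 in all 5 libraries, Hist1h2bc with -0.72 and Hist3h2a with -0.66. Hist1h2br (0.54) and Hist1h4i (0.69) came next. Over the libraries the last 4 did not keep 1 direction. In naive sorted monocytes Hist1h2br reached 2.93 and Hist1h4i 2.00, and Hist3h2a was at 1.32 in D7 CTX BM. Hist1h1c was at -0.13 in naive sorted monocytes, with an interval of -0.26 to 0.008 that held 0. In marrow the ratio also sets cell classes (described below) apart. Among the 3828 low cells of naive BM, 725 were in the immature and 755 in the mature neutrophil gate. The part of cell class in these ratios was not tested.

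**Figure D4:**
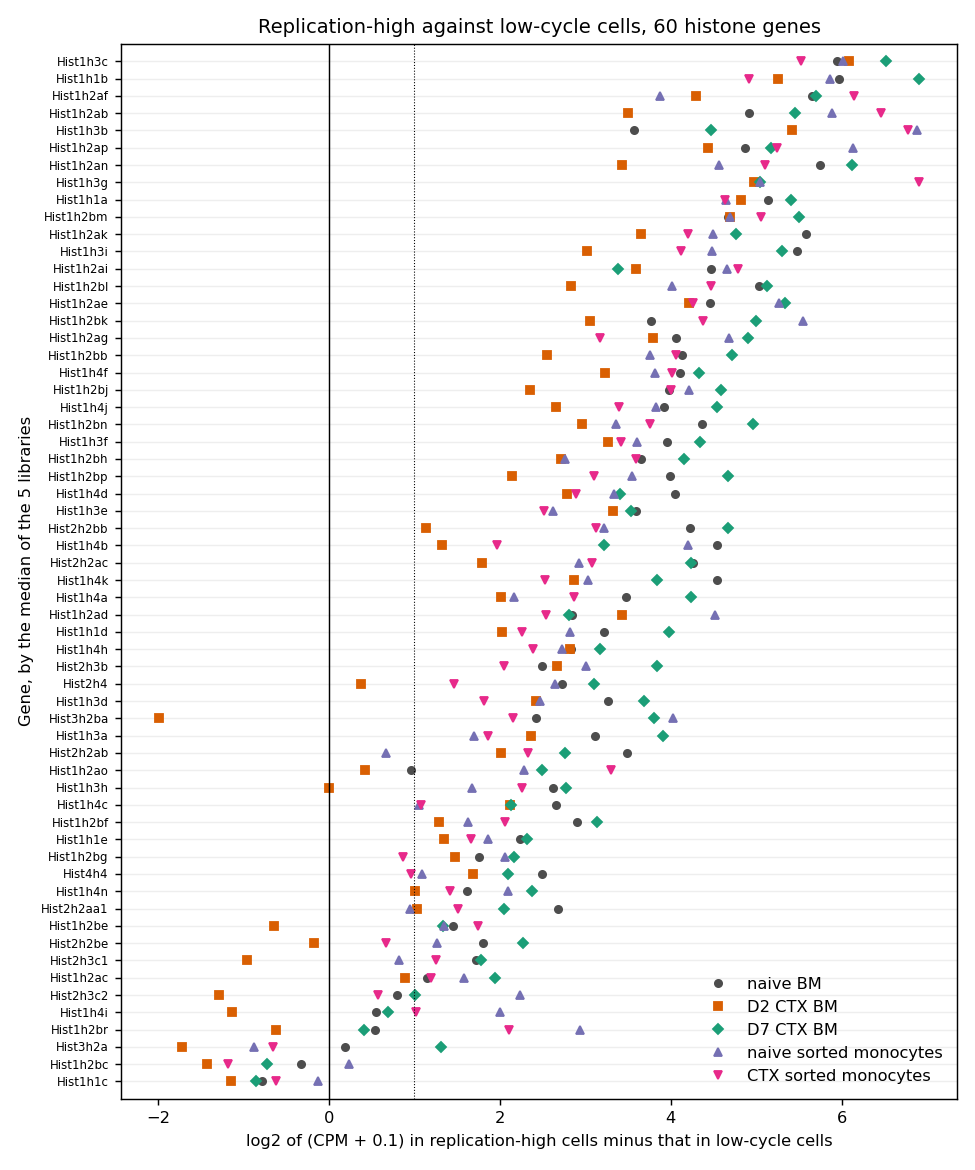
For each of the 60 members, log2 ratio of CPM in replication-high over low cells in the 5 libraries, ordered by the median and coloured by library. Hist1h3c and Hist1h1b lead with medians of 6.02 and 5.87, and Hist1h1c lies below 0 in all 5 libraries.

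By type, the median of the genes' medians was 4.06 for H2A, 3.39 for H2B, 2.995 for H3, 2.84 for H4 and 2.82 for H1. The lowest genes of H1, H2A and H2B were at -0.78, -0.66 and -0.72, and those of H3 and H4 at 0.79 and 0.69. The spread of the genes within a type was thus wider than the gap between the medians of the types.

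Within the same gates the D2 CTX BM cells also had a low histone level. In replication-high cells the members without Hist1h2ap were at 2617 CPM in naive BM, 876 CPM in D2 CTX BM and 2041 CPM in D7 CTX BM, log2 ratios to naive BM of -1.58 and -0.36. The replication list by which these cells were gated was itself at 5069, 3348 and 3519 CPM, so it was lower than in naive BM by a similar amount at both times. In mitosis-high cells the members without Hist1h2ap were at 2261, 471 and 1969 CPM, and in low cells at 379, 284 and 337 CPM. The mix of cell classes (described below) within a gate was not held fixed. Erythroid-gated cells, at 3053 CPM, were 376 of the replication-high cells of naive BM. Kit progenitor-gated cells were 62 of those in naive BM, at 1115 CPM, and 137 of those in D2 CTX BM, at 827 CPM. Replication-high cells gated as pro-B and large pre-B were at 2111 and 729 CPM in these libraries. These values are without Hist1h2ap, and the part of class makeup was not tested.

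H2B genes showed the deepest difference inside the replication-high gate, with 253 CPM in naive BM and 53.6 CPM in D2 CTX BM (-2.24). In D2 CTX BM their summed level in replication-high cells did not stand out from the 52.2 CPM of low cells. The log2 ratio was 0.04 (interval -0.13 to 0.20). Abundant H2B genes were lower in replication-high cells, Hist1h2bc at 8.14 against 22.1 CPM and Hist1h2be at 7.94 against 12.4 CPM. Most single H2B genes were higher there, such as Hist2h2bb at 4.70 against 2.08 CPM. Between replication-high cells of naive and D2 CTX BM, Hist2h2bb was at 48.5 and 4.70 CPM (-3.37) and Hist1h1b at 791 and 226 CPM (-1.80). Hist1h2ae was at 217 and 153 CPM (-0.50), a smaller gap, and Hist1h2ap at 83.4 and 498 CPM was higher by 2.58.

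When each library was reweighted to the makeup of naive BM, using its own level in each cycle gate and the naive gates' shares of UMIs, D2 CTX BM remained below naive BM by -1.04 on the log2 scale (-1.53 without Hist1h2ap) and D7 CTX BM by -0.28 (-0.30). This reweighting was chosen after the data had been seen, and it did not hold the cell classes within a gate fixed. The same step within the sorted pair gave -0.47 for all members and 0.19 without Hist1h2ap. In replication-high sorted cells the members without Hist1h2ap were at 3357 CPM in naive and 3515 CPM in CTX sorted monocytes (0.07), and Hist1h2ap was at 8253 and 4025 CPM (-1.04).

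Cells were also assigned to classes by markers of marrow cell types, again without histone genes and with limits set after the distributions had been seen. The class limits are likewise rates with no minimum count. Classes with under 50 cells in a library are not described. The labels call the marrow CD45+ mononuclear cells, and the gates for erythroid cells and mature neutrophils held 6.31% and 12.5% of naive BM. Doublets were left in for the main values.

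In naive BM, members without Hist1h2ap were highest in erythroid-gated cells, at 2937 CPM, where 83.9% of cells were replication-high. Cells gated as basophil and mast were at 2751 CPM, B-lineage cells outside the pro-B and large pre-B gate at 2600 CPM and cells gated as pro-B and large pre-B at 1907 CPM. NK-gated cells were at 1650, monocyte-gated cells at 1454, pre-neutrophil-gated cells at 1210, Kit progenitor-gated cells at 1082 and GMP-gated cells (granulocyte and monocyte progenitors) at 952 CPM. The lowest were the mature neutrophil gate at 456, the T gate at 266 and the immature neutrophil gate at 253 CPM, and 0%, 1.36% and 0.517% of these cells were replication-high.

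At day 2, all members together were lower than in naive BM in 12 of the 13 classes with at least 50 cells in both libraries. Kit progenitor-gated cells, a gate that holds the earliest progenitors, were the exception, at 1239 CPM in D2 CTX BM and 1130 CPM in naive BM (0.13), and without Hist1h2ap they were at 780 and 1082 CPM (-0.47). With 2 times the marker UMIs needed for a gate the ratio of all members in this class was -0.039, and 13 of the classes were lower. Of the 196 such cells in D2 CTX BM, 69.9% were replication-high against 46.3% of the 134 in naive BM, and their median depth was 24063.5 UMIs against 10080 UMIs. Their share of replication-high cells and their depth were thus both higher, and the part of either in the result was not tested.

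The widest gaps without Hist1h2ap were in the B lineage and in NK cells. B-lineage cells outside the pro-B gate were at 488 CPM in D2 CTX BM (-2.41), with 1.07% of cells replication-high against 18.4% in naive BM. Cells gated as pro-B and large pre-B were at 494 CPM (-1.95), and NK-gated cells at 393 CPM (-2.07). Erythroid-gated cells were at 1020 CPM (-1.53), with 11.7% replication-high. In these classes the share of replication-high cells was also lower, and its part in the result was not tested.

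In the myeloid line, monocyte-gated cells were at 528 CPM without Hist1h2ap in D2 CTX BM (-1.46) and pre-neutrophil-gated cells at 469 CPM (-1.37). The replication-high share of monocyte-gated cells was 14.2% in D2 CTX BM and 15.2% in naive BM. Their mitosis-high share was 22.7% in D2 CTX BM and 11.6% in naive BM. The level in this class was thus lower at a similar replication-high share but not at the same cycle makeup. Mitosis-high monocyte-gated cells were at 2850 CPM in naive BM (59 cells) and 574 CPM in D2 CTX BM (40 cells). Replication-high monocyte-gated cells were at 2753 CPM in naive BM (77 cells) and 810 CPM in D2 CTX BM (25 cells). Among pre-neutrophil-gated cells, those in the mitosis-high gate were at 2102 CPM in naive BM and 402 CPM in D2 CTX BM, whereas those in the replication-high gate were at 1818 and 1638 CPM, the latter over 28 cells.

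**Figure D5:**
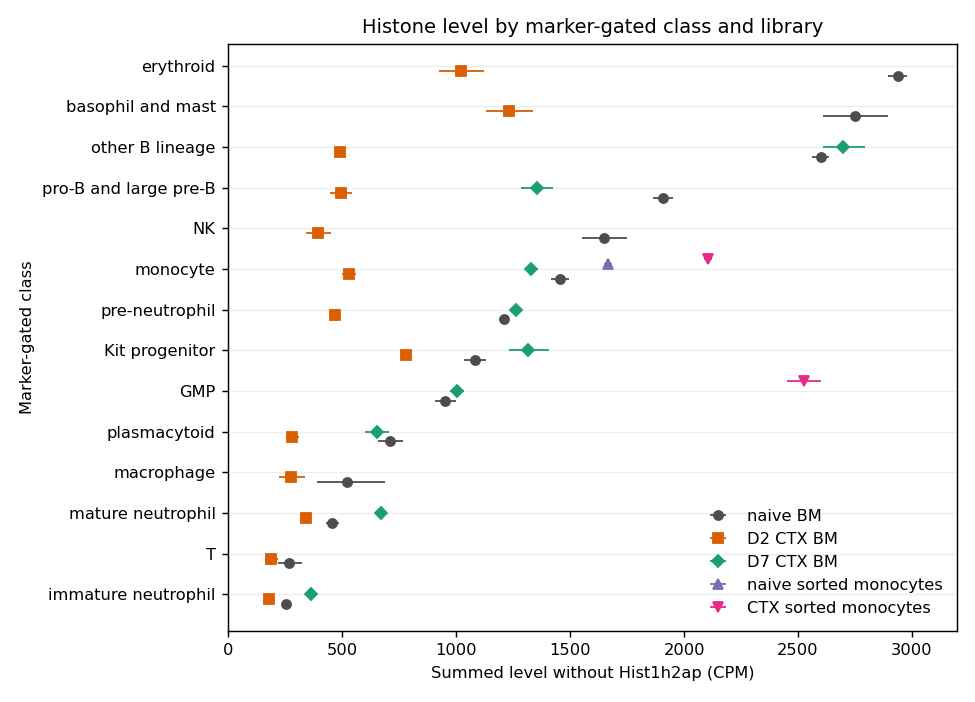
Summed histone CPM without Hist1h2ap in each marker-gated class with at least 50 cells, by library, with exact Poisson intervals on an axis that starts at 0. D2 CTX BM lies below naive BM in each class that both libraries hold, by -2.41 on the log2 scale in B-lineage cells outside the pro-B gate and by -0.42 in mature neutrophils.

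At day 7 the classes lay on both sides of their naive levels. Monocyte-gated cells were at 1329 CPM (-0.13), pre-neutrophil-gated cells at 1263 CPM (0.06), GMP-gated cells at 1004 CPM (0.08) and B-lineage cells outside the pro-B gate at 2700 CPM (0.05), all without Hist1h2ap. In the last class 48.5% of 132 cells were replication-high in D7 CTX BM, against 18.4% of 1746 cells in naive BM. Its replication-high cells were at 3154.5 CPM in D7 CTX BM and 4433 CPM in naive BM. Its low cells were at 468 and 842 CPM, so within these gates the level was lower at day 7. The immature and mature neutrophil gates lay above naive BM, at 365 CPM (0.53) and 670 CPM (0.55). Cells gated as pro-B and large pre-B were lower, at 1353 CPM (-0.49). Of the 9 classes that both libraries held, 3 were lower in D7 CTX BM, while the sum over the whole marrow was lower. With 2 times the marker UMIs needed 5 classes were lower, and the ratios of all members were -0.28 in GMP-gated and -0.085 in Kit progenitor-gated cells. B-lineage cells outside the pro-B gate, a class with a high histone level, were 24.6% of naive BM and 1.59% of D7 CTX BM. Immature neutrophils, a class with a low one, were 10.9% and 22.5%. The erythroid gate, with the highest level in naive BM, held 6.31% of naive BM and 0.217% (18 cells) of D7 CTX BM. With so few cells its level at day 7 is not described.

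Which genes carried the level depended on the class. In the T, immature neutrophil and mature neutrophil gates of naive BM Hist1h1c led, with 43.2% of the histone UMIs of immature neutrophils and 39.5% of those of mature neutrophils, where Hist1h2bc and Hist1h4i came next. In the erythroid, pre-neutrophil and monocyte gates of the same library Hist1h1b led. In mature neutrophils Hist1h1c was at 182 CPM in naive BM, 85.3 CPM in D2 CTX BM and 345 CPM in D7 CTX BM, and Hist1h1b was at 8.06, 4.15 and 7.27 CPM. The ratio of these linker histone genes thus differed widely between classes of the same library.

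Hist1h2ap was found in the monocyte gate at 45.4 CPM in naive BM, 201 CPM in D2 CTX BM and 36.2 CPM in D7 CTX BM, then 3227 CPM in naive sorted and 1905 CPM in CTX sorted monocytes. The gap between sorted and unsorted monocytes of untreated mice held within the replication-high gate, with 111 CPM in naive BM and 8545 CPM in naive sorted monocytes. The other members in the same cells were at 2753 and 3481 CPM. The monocyte gate took 93.6% of the cells of the naive sorted and 90.6% of the CTX sorted library, against 7.14% of naive BM. The sorted libraries and the marrow libraries were separate preparations, so sort and library cannot be told apart.

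In D2 CTX BM Hist1h2ap was higher than in naive BM in nearly every class. It was at 518 CPM in erythroid-gated cells against 89.5, at 290 CPM in cells gated as pro-B and large pre-B against 50.5, and at 459 CPM in Kit progenitor-gated cells against 48.2. B-lineage cells outside the pro-B gate, at 49.9 CPM against 61.5 CPM, were the exception. T-gated cells of naive BM held 0 UMIs of it, with an upper interval limit of 9.44 CPM. Those of D2 CTX BM held 14 UMIs, or 15.8 CPM (interval 8.65 to 26.5). Macrophage-gated cells also held 0 UMIs of Hist1h2ap in naive BM, with an upper limit of 37.7 CPM.

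To compare cells at equal depth, each was thinned to 2000 UMIs and shallower cells were left out. A histone UMI was then found in 58.9% of naive BM cells (interval 57.7% to 60.2%, 1153 cells left out), 43.3% of D2 CTX BM cells (41.9% to 44.8%, 1544 left out) and 56.0% of D7 CTX BM cells (54.9% to 57.1%, 245 left out). The shares were 70.4% of naive sorted and 78.2% of CTX sorted monocytes, and the unthinned shares were 71.8%, 55.9%, 82.2%, 94.6% and 96.6%. Mature neutrophils, which no longer divide, had a share of 51.7% in naive BM, 43.7% in D2 CTX BM and 60.2% in D7 CTX BM, at median depths of 2252, 1640.5 and 3822 UMIs. The share over all D2 and D7 CTX BM cells did not exceed that of these neutrophils, in which Hist1h1c led the histone UMIs, so division is not read from it. In replication-high cells the shares were 82.3%, 70.3%, 80.8%, 89.9% and 89.6%, above the neutrophils in each marrow library.

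Genes that serve histone supply were examined as a list of 34, all of which passed the limit of 50 UMIs. They cover transcription at the histone loci, end processing, decay and the chaperones that carry histones to DNA. In D2 against naive BM 4 were at least 1 log2 unit lower and 0 higher, where 4.11% and 11.5% of all features were, and the median was -0.21 against 0.23 for all features. These were Ccne1 and Ccne2, the E-type cyclins that switch on histone transcription at S phase entry (-2.28 and -1.86), Asf1b, a chaperone of H3 and H4 (-1.36), and Slbp (-1.11). The highest were Ipo4, an importin for histones (0.94), Hinfp, an H4 transcription factor (0.53), and Cpsf3, the endonuclease that cuts histone pre-mRNA (0.36).

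Slbp itself was at 244 CPM in naive BM, 113 in D2 CTX BM and 121 in D7 CTX BM, then 126 in naive sorted and 150 in CTX sorted monocytes. In D7 against naive BM 18 of the 34 were lower and 0 higher, where 31.1% and 1.68% of all features were. Scaling by the median ratio of genes left 3 lower, where 10.6% of all features were. The lowest were Ccne1 (-2.15), Ipo4 (-1.99) and the exonuclease gene Dis3l2 (-1.81), and Lsm10 (0.17) was highest. In D7 against D2 CTX BM 11 were lower and 0 higher, where 44.9% and 1.57% of all features were. Median-ratio scaling gave 2 lower and 4 higher, where 15.3% and 10.2% of all features were. Ipo4 was at -2.94 and Asf1b at 0.87, and Slbp differed by 0.10. In the sorted pair 0 were past the limit either way, where 2.37% of all features were lower and 2.41% higher, and the ratios ran from -0.42 for Ipo4 to 0.64 for Ccne2. The median ratios were -1.01, -0.80 and 0.15 for these comparisons, against -0.67, -0.89 and 0.04 for all features.

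The 11 histone genes listed here as replication-independent gave the contrast within the histones. Whether each of these 11 is expressed independently of replication was not tested. In D2 against naive BM 3 of them were at least 1 log2 unit lower, H2afx (-1.50), which encodes the variant H2A.X that is phosphorylated at DNA breaks, H2afv (-1.20) and H1f0 (-1.20), and 0 were higher, where 4.11% of all features were lower and 11.5% higher. The median was -0.44, against -1.81 for the replication-dependent members and 0.23 for all features. H2afz (H2A.Z) was at 2190 CPM in naive BM, 1335 in D2 CTX BM and 2063 in D7 CTX BM, then 2590 in naive sorted and 2733 in CTX sorted monocytes, and H3f3b (H3.3) was at 2084, 1566, 1735, 2968 and 2845 CPM. Each of these genes alone thus gave more counted molecules than all replication-dependent members together in the 3 marrow libraries. In D7 against naive BM only H1fx (-2.21) was past the limit, where 31.1% of all features were lower. In D7 against D2 CTX BM H1fx (-1.92) and H2afy2 (-1.24) were lower and 0 higher, where 44.9% of all features were lower and 1.57% higher. Median-ratio scaling gave 1 lower and 7 higher, where 15.3% of all features were lower and 10.2% higher. In the sorted pair 0 of the 11 were past the limit, where 2.37% and 2.41% of all features were.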

How the data were processed

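The authors deposited, for each of 5 libraries of the 10x Genomics 3′ V3 chemistry, raw UMI counts per gene and barcode. Per the labels and the study's methods, these came from Cell Ranger 3.1 with mm10, and Seurat 5.0 was used afterwards. The read length is not given in the sources used here. The matrices held fewer barcodes than the cells the study describes, and the lowest barcode held 500 UMIs. In what was computed here, cells with at least 200 genes and under 20% mitochondrial UMIs were kept, as in the study's methods, and 0 columns of sample values were left unused. UMIs were summed over the cells of a library, class or cycle gate and divided by all UMIs of these cells (CPM). A level carries an exact Poisson interval, a log2 ratio of summed CPM an exact conditional interval and a share of cells a Clopper-Pearson interval, all at 95%, so depth sets their width and deeper libraries have narrower ones.

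With 1 library per group no test was run. Counts of genes used a fixed limit of 1 on log2(CPM + 0.1) over features with at least 50 UMIs. Named genes were the 20 members with most UMIs, the 3 highest and 3 lowest ratios of a comparison among members with at least 50 UMIs in its libraries, and the 5 highest and 5 lowest ratios of replication-high over low cells. Of the other lists, the 3 highest and lowest ratios with Slbp, H2afz and H3f3b were eligible. Hist1h4j (for its sequence) and Hist1h2ah and Hist1h3h (as neighbours of the 50-UMI limit) were named outside that rule. The members and lists were chosen with earlier results of these data known. Class and cycle limits were set after the marker distributions were seen. Alternatives covered the cell filter, doublets (Scrublet in scanpy 1.11.5), the total used for CPM, scaling by the median ratio of genes, the mean over cells, Hist1h2ap left out, pseudocounts of 1 and 0.01, filters on low genes, gate limits and thinning depth. Transcripts and positions came from GENCODE M21 (GRCm38). The calculations were tested on simulated data and used Python 3.11.15, numpy 2.4.6, scipy 1.17.1, pandas 2.3.3 and matplotlib 3.10.9.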

Additional observations from a re-analysis of the deposited data

Results flagged for a closer look

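The members differed in opposite directions in whole marrow at day 7 and in sorted monocytes after CTX. Without Hist1h2ap the summed log2 ratio was -0.62 for D7 CTX BM over naive BM and 0.34 for CTX over naive sorted monocytes. The same held for H1 genes (-0.53 and 0.55), H2B genes (-0.66 and 0.28), H3 genes (-0.82 and 0.12) and H4 genes (-0.64 and 0.44). Each value rests on 1 library per group, and the difference between the pairs was not tested. The direction in marrow depended on scaling, since the median ratio of genes gave 0.09 in place of -0.62 for the members without Hist1h2ap. The median of all features was -0.67 in the marrow pair and 0.04 in the sorted pair. In monocyte-gated cells of D7 CTX BM the log2 ratio to naive BM was -0.13 without Hist1h2ap, against 0.34 in the same gate of the sorted pair.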

How the results depend on the processing

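Summed log2 ratios for D2 over naive BM (-1.31), D7 over naive BM, D7 over D2 CTX BM and CTX over naive sorted monocytes became -1.51, 0.10, 1.61 and -0.33 when scaled by the median ratio of genes, which moved all ratios by -0.20, 0.71, 0.91 and -0.05. They became -1.38, -0.40, 0.98 and -0.15 as means over cells. Leaving out Hist1h2ap gave -1.74 at day 2, 1.12 from day 2 to day 7 and a reversed 0.34 in the sorted pair. At the naive cycle makeup, an alternative chosen after seeing the data, they were -1.04, -0.28, 0.75 and -0.47. Without the 20 most abundant genes in the total they were -1.35, -0.19 and 1.15 for the marrow comparisons. With doublets removed they were -1.27, 0.66 and -0.27 for D2 over naive, D7 over D2 and the sorted pair. With all barcodes D7 over naive BM was -0.59, and with the stricter cell filter D7 over D2 CTX BM was 0.68.

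Counts of members at least 1 log2 unit lower in D7 than naive BM went from 15 to 6 with a pseudocount of 1. Median-ratio scaling gave 4 lower, and 2 higher in place of 0, where 10.6% of all features were lower and 9.62% higher. For D7 over D2 it gave 1 lower in place of 3, where 15.3% of all features were lower. The 3 higher members of the sorted pair became 0 with a pseudocount of 1. Shares of all features were not computed for that pseudocount. With median-ratio scaling, supply genes lower at day 7 went from 18 to 3 against naive BM. Against D2 CTX BM they went from 11 to 2, with 4 higher in place of 0. Replication-independent genes in the latter pair had 1 lower in place of 2 (also with a pseudocount of 1) and 7 higher in place of 0. Under median-ratio scaling 15.3% of all features were lower and 10.2% higher in the latter pair.

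Replication-high over low ratios, as means over cells, were 2.67, 2.00, 2.43, 4.22 and 3.27. Without Hist1h2ap they were 1.63, 2.60, 2.86 and 2.49, and with the higher replication limit 2.39, 2.69, 4.22 and 3.28, in all libraries after naive BM. Classes lower at day 7 than in naive BM went from 3 to 5 with doubled gates, and those lower than at day 2 from 0 to 1, also with doublets removed. Doubled gates reversed Kit progenitor-gated cells to -0.039 (D2 over naive), -0.085 (D7 over naive) and -0.046 (D7 over D2; -0.0019 with doublets removed) and GMP-gated cells to -0.28 (D7 over naive). The thinned shares at 1000 UMIs, at 3000 UMIs and with at least 2 UMIs were 44.7%, 66.7% and 36.9% in naive BM, 29.3%, 51.3% and 18.5% in D2 CTX BM, 40.8%, 65.04% and 32.0% in D7 CTX BM, 52.9%, 81.0% and 45.3% in naive sorted and 61.8%, 86.2% and 55.5% in CTX sorted monocytes.

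No paired analysis was possible because each group was 1 library and no result came from a test, with no replicate to leave out. The causes of these shifts were not tested. Depth limits the rarest members: 7 fell under 50 UMIs over all libraries. Near copies limit single genes, and a chemistry that primes on A runs limits what these levels say of total histone mRNA.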

Other observations

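Within replication-high cells, 10224 features had at least 500 UMIs over the 5 libraries, and 152 of them had the pattern of Hist1h2ap across libraries, being at least 1 log2 unit higher in D2 CTX BM and in both sorted libraries than in naive and D7 CTX BM. Hist1h2ap was the 1 member among them. This search was made after the values of Hist1h2ap had been seen, and it carries no test. The pattern was measured as the smaller of its margins on the log2 scale, and only the features Gm10076 (3.16) and Gstp1 (2.69) had a larger margin than Hist1h2ap (2.44).

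Gm10076 was at 101 CPM in naive BM, 1077 in D2 CTX BM and 87.8 in D7 CTX BM, then 1623 in naive sorted and 910 in CTX sorted monocytes. Gstp1, a glutathione transferase gene, was at 6.61, 48.2, 3.903, 91.4 and 50.9 CPM. Next came Ccdc85b (2.36), Gm10260 (2.19), Ass1 (2.02), Oas1a (1.99), Nr4a1 (1.96) and Cdkn1a (1.86), the last a p53 target that inhibits cyclin-dependent kinases, at 17.3, 277, 28.1, 150 and 104 CPM. Of the 90-base windows, 61.4% were unique in Gm10076, 45.2% in Gstp1, 50.4% in Gm10260, 58.2% in Ass1 and 56.6% in Oas1a. Ccdc85b, Nr4a1, Cdkn1a and Nav1 (margin 1.86) had 100% unique windows. The share over all features was not computed, so no likeness to Hist1h2ap is read from these values. What these genes share beyond the pattern was not tested.

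Among the 41 members with at least 50 UMIs and an element, the 21 whose annotated transcript runs over 100 bases past it had a median of 3024 UMIs, and the 20 with at most 100 bases had 1018.5 UMIs. The 19 with no element within the annotated transcript had a median of 1352 UMIs. Hist1h2ap, with 3 bases past the element, had 142691 UMIs.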
